A study of Mus musculus with 23 samples.

Results

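With earlier results of these data known, the digestive enzymes of the brush border were followed as 9 genes out of 22350 genes quantified. The 9 genes were chosen by symbol as known enzymes of the enterocyte surface and not by a rule on their measured values. These were the disaccharidases sucrase-isomaltase (Sis), maltase-glucoamylase (Mgam), lactase (Lct) and trehalase (Treh), intestinal alkaline phosphatase (Alpi), the exopeptidases aminopeptidase N (Anpep) and dipeptidyl peptidase 4 (Dpp4), and the alpha and beta chains of the metalloprotease meprin (Mep1a and Mep1b). RNA-seq and ribosome profiling (Ribo-seq, the sequencing of the mRNA fragments that ribosomes cover, here called footprints) were made from small intestinal organoids and from the small intestine of mice on a C57BL/6 background, to see what changes when Rptor is lost. Rptor encodes Raptor, the subunit that defines mTORC1, a kinase complex that promotes RNA translation.

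Wild-type (WT) organoids carried VillinCre.ERT2.RPL22.HA, a Cre driven by the epithelial Villin promoter together with a Cre-dependent HA tag on the ribosomal protein RPL22. Rptor fl/fl organoids carried VillinCre.ERT2.Rptor.fl/fl where RNA was sequenced, while those used for footprints were VillinCre.ERT2.Rptor.fl/fl.RPL22.HA, so RNA and footprints came from different genotypes. Stem cell enriched (SCe) organoids had the WT genotype and were grown with CHIR 99021, an activator of Wnt signalling, and valproic acid. Adult mice carried Lgr5Cre.ERT2.RPL22.HA (WT) or Lgr5Cre.ERT2.Rptor.fl/fl.RPL22.HA, where Cre acts in Lgr5-positive crypt cells and the HA tag enters their ribosomes and those of their progeny. All were labelled untreated apart from the stem cell enrichment, although the study's methods describe induction with tamoxifen in both models, about a day before collection for the mice. RNA was available for 2 WT and 2 Rptor fl/fl organoid lines, each with 2 technical libraries that were summed, and for 3 SCe cultures. Footprints were available for 3 Rptor fl/fl and 3 SCe organoid cultures and for 3 WT and 3 Rptor fl/fl mice. Levels are given as CPM, counts scaled to a common library size by TMM, which corrects for library composition.

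The brush border is the carpet of microvilli on the apical face of the absorptive enterocyte, and its enzymes are membrane-anchored proteins whose catalytic parts face the gut lumen. They finish digestion where it meets absorption: disaccharidases release glucose, galactose and fructose for the apical sugar transporters, peptidases release amino acids and short peptides, and alkaline phosphatase removes phosphate from dietary and bacterial molecules. Their genes are switched on as cells leave the crypt and mature along the villus, under intestinal factors of the CDX, HNF1, HNF4 and GATA families. Alpi, Sis and Lct are in common use as markers of enterocyte maturity.

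Between 23802944 and 67598878 reads were assigned per organoid RNA library, between 1106178 and 8257457 footprints per organoid library and between 772077 and 8238388 per mouse. SCe culture 1 stood apart from the other SCe cultures: it held the lowest RNA level of all 9 enzymes, from 1.30-fold (Mep1a) to 506-fold (Sis) below the mean of the other cultures, and SCe footprint library 1 was the lowest of its group for 8 of the 9. Comparisons with SCe organoids are therefore also given without these libraries. Rptor fl/fl RNA line 1 also lay below line 2 for all 9 enzymes, by 1.12-fold (Mep1b) to 1.88-fold (Mep1a). The share of all genes lowest in SCe libraries 1 or in Rptor fl/fl line 1 was not counted. Rptor itself was 3.28-fold lower in Rptor fl/fl than in WT organoid RNA (log2 fold change -1.71, SE 0.0835, adjusted p = 0.00516, edgeR quasi-likelihood test), but its footprints did not pass the test in the Rptor fl/fl-labelled libraries, neither in organoids (-0.53, SE 0.335, adjusted p = 0.318) nor in mice (-0.28, SE 0.123, adjusted p = 0.15). SCe organoids also carried transcripts of the stromal list, with a summed level of 70.1 to 115 CPM in RNA against 2.55 to 3.71 CPM in WT and 1.63 to 3.34 CPM in Rptor fl/fl organoids, most of it vimentin (Vim), while Cdh5, Col3a1 and Lum of the 10 genes were at 0 in every SCe RNA library; the part of these transcripts in the enzyme levels was not tested.

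The enzymes did not move as a block in any comparison. In RNA, 2 of the 9 were lower in Rptor fl/fl than in WT organoids (Anpep and Dpp4), where 11% of 14131 genes were called lower, and 0 were called higher by edgeR, where 11.6% of genes were; the count of higher members was also 0 at an unadjusted p under 0.05 and was 1 with DESeq2. In SCe against WT organoids, 1 was higher (Mep1a; 22.4% of 14925 genes were called higher) and 2 were lower (Alpi and Mep1b; 19.9% were called lower). In Rptor fl/fl against SCe organoids, 2 were higher (Alpi and Mep1b; 21% of 15103 genes) and 1 was lower (Anpep; 21.8%). These shares lie near the background, so the counts set the enzymes apart from other genes in none of the RNA comparisons; the 3 comparisons share their sample groups in pairs. In footprints of Rptor fl/fl against SCe organoids, 3 were higher (Alpi, Treh and Mep1b; 6.63% of 10817 genes) and 1 was lower (Mep1a; 9.84%). Footprints relative to RNA, that is translation efficiency, passed the test for 1 enzyme, Anpep, which was higher (1.12% of 10747 genes; 1.81% were called lower, and 0 enzymes, against 1 at an unadjusted p under 0.05 and 0 with DESeq2). In mice, 3 were higher in the Rptor fl/fl animals (Alpi, Mep1a and Mep1b; 7.47% of 11515 genes) and 1 was lower (Sis; 5.97%).

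**Figure D1:**
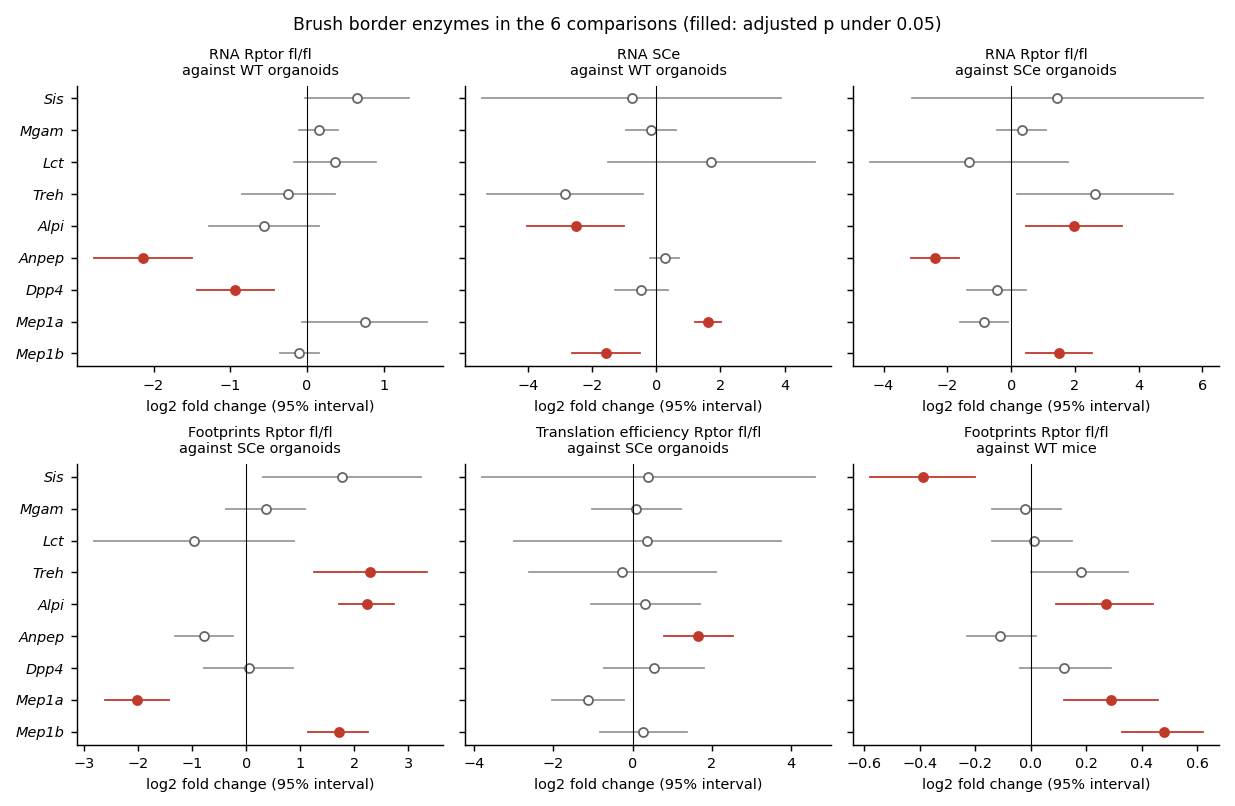
Log2 fold change of the 9 enzymes (rows) in the 6 comparisons (panels), with 95% intervals from the edgeR fits; filled red points passed an adjusted p of 0.05. The panels have different scales: differences in mice stay between -0.39 and 0.48, while those in organoids run from -2.84 to 2.62.

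Without the SCe libraries numbered 1 more enzymes were called, as were more genes in all. Without SCe RNA culture 1 the counts rose to 3 higher and 3 lower in SCe against WT organoids (Lct, Anpep and Mep1a higher, Treh, Alpi and Mep1b lower), where 31.9% of 14855 genes were then called higher and 32.2% lower, and to 4 higher and 4 lower in Rptor fl/fl against SCe RNA (Sis, Treh, Alpi and Mep1b higher, Lct, Anpep, Dpp4 and Mep1a lower), where 30.6% of 14953 genes were called higher and 30.2% lower. Without SCe footprint library 1 they were 4 higher (Sis added) and 3 lower (Lct and Anpep added), where 10.4% of 11261 genes were called higher and 13.4% lower. For the calls made with all libraries, the values without SCe RNA culture 1 were -2.12 for Alpi, -1.26 for Mep1b and 1.73 for Mep1a against WT, and -2.53 for Anpep, 1.58 for Alpi and 1.17 for Mep1b in Rptor fl/fl against SCe. In footprints without SCe library 1 they were 2.07 for Alpi, 1.82 for Treh, 1.73 for Mep1b and -2.22 for Mep1a, and every one of these 10 calls held. Among the uncalled, Dpp4 in SCe against WT RNA was at -0.21 (adjusted p = 0.0586) and Mgam in footprints at 0.05 (adjusted p = 0.866). The median log2 fold change of the 9 was -0.10 in Rptor fl/fl against WT RNA, -0.47 in SCe against WT RNA, 0.33 in Rptor fl/fl against SCe RNA, 0.36 in footprints, 0.31 in translation efficiency and 0.12 in mice, with medians over all genes tested between -0.03 and 0.02.

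The sequences just before the start sites of 4 enzymes that differed in direction are shown, each as the 250 bases upstream of the start, 5′ to 3′ on the gene's strand, in lower case. Those of Sis (chr3:72967864-72968113, minus strand), Alpi (chr1:87101607-87101856, minus strand) and Mep1a (chr17:43502774-43503023, minus strand) are from the RefSeq table for GRCm38.p6, which held 8 of the 9 genes. That of Anpep is from the GRCm38.p6 genome before the start of transcript Anpep-201 (chr7:79842353-79842602, minus strand), because 84.8% to 89.2% of Anpep reads in organoid RNA were assigned to this transcript, which starts 5858 bases downstream of the RefSeq start. Capitals mark short motifs of the factor families named above and the TATA box, searched on both strands. For the HNF1 family the letters were GTTAAT and the longer TTAATNATT, which can overlap by their shared letters. For the CDX family they were TTTATG, for GATA factors they were GATAAG, and for the HNF4 family they were CAAAGTCCA. The TATA box was searched as TATAAA.
Sis: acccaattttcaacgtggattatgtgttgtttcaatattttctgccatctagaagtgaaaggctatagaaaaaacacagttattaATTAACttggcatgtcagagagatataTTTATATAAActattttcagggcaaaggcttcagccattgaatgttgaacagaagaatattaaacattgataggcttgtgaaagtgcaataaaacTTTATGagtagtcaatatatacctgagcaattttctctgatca
Alpi: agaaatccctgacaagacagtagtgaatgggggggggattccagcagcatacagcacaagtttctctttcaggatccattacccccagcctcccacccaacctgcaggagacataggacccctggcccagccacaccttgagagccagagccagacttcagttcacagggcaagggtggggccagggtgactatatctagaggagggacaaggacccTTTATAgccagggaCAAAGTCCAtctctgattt
Mep1a: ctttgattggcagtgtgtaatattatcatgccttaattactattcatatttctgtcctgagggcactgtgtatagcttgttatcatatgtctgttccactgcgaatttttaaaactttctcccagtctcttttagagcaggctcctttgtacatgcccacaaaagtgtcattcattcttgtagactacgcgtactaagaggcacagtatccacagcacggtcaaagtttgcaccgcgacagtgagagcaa
Anpep-201: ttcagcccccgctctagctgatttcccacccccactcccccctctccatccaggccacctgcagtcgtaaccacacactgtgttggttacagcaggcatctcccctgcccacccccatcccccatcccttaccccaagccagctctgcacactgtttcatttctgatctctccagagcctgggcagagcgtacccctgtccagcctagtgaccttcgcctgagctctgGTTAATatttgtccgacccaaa
The Sis window held a CDX match starting 43 bases before the start, an HNF1 match at 165 and a pair of overlapping TATAAA matches at 134 and 138. Of the Sis matches, those at 165 and 138 were on the strand opposite to the gene. The Alpi window held TATAAA at 33 bases before the start, also on the opposite strand, so the printed strand reads TTTATA there. It held the HNF4 letters at 19, and the Anpep-201 window held GTTAAT at 22, both on the gene's strand. None of these letters occurred in the Mep1a window. In organoid RNA, 100% of Mep1a reads were assigned to Mep1a-202, which starts 39 bases upstream of the RefSeq start. The last 39 bases shown thus lie within the span of that transcript, and the window was not moved to its start. Over the 32851 windows of this length in the table, GTTAAT occurred in 6.43%, TTAATNATT in 1.4%, TTTATG in 10.8%, GATAAG in 6.55%, CAAAGTCCA in 0.384% and TATAAA in 12.4%. Among the 8 enzymes in the table, CAAAGTCCA occurred in 2 (Alpi and Treh), TTTATG in 2 (Lct and Sis), TATAAA in 4 (Alpi, Dpp4, Mgam and Sis), and GATAAG in 1 (Mgam).

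The enzymes spanned a wide range of levels per kilobase of transcript, and their order differed between organoids and intestine. In WT organoid RNA, Alpi led with a mean of 622.7 CPM per kilobase (529.6 and 715.7 in the 2 lines), followed by Sis (267.6), Mgam (214.2), Mep1b (59.3), Anpep (40.3), Dpp4 (17.2), Treh (15.7), Mep1a (8.34) and Lct (0.856). The lines of Dpp4 and Treh overlapped in this order and no other neighbours did. In mouse footprints, counted per kilobase of the sequence searched, Anpep led with a mean of 2634 in WT mice, ahead of Mgam (1524) and Sis (1186), while Mep1b (612.7), Alpi (579.5) and Lct (558.9) overlapped between mice, as did Treh (289.5) and Dpp4 (279.3), and Mep1a was lowest (144.1). Lactase, last in WT organoid RNA, was within the range of Alpi in WT mice. RNA and footprint levels, and the organoid and mouse footprint libraries, were counted on different sequence sets and were not tested against each other.

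Sucrase-isomaltase (Sis, chr3:72888557-72967863, minus strand) splits sucrose and the branch points of starch fragments and was, with Alpi and Mgam, one of the abundant enzyme transcripts of organoids. WT lines held 1329 and 1725 CPM of Sis RNA, and Rptor fl/fl lines 1872 and 2932 CPM. The groups did not overlap, but the difference did not pass the test (log2 fold change 0.65, SE 0.258, adjusted p = 0.133). With technical libraries kept apart it was 0.66 (adjusted p = 0.0126), in a fit that counts libraries of the same line as replicates. In SCe cultures 1, 2 and 3 it stood at 2.61, 1085 and 1556 CPM. Culture 1, with 78 counts where the others had 69094 and 90466, decides any comparison with SCe: against WT the log2 fold change was -0.77 (SE 1.82) with it and -0.19 (adjusted p = 0.46) without it. Footprints of Sis were at 54.2, 178.8 and 544.6 CPM in SCe libraries, while the Rptor fl/fl-labelled libraries held 818.1, 925.6 and 946.1 CPM. All 3 of the latter lay above all SCe libraries, with a log2 fold change of 1.78 (SE 0.642, adjusted p = 0.0937), which passed without SCe library 1 (1.28, adjusted p = 0.0367) and without SCe library 3 (2.98, adjusted p = 0.00642). In RNA, Rptor fl/fl against SCe passed only without SCe culture 1 (0.86, adjusted p = 0.0397).

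Maltase-glucoamylase (Mgam, chr6:40628831-40769123, plus strand), which trims glucose from the ends of starch chains, kept close levels in the RNA of all organoid groups apart from SCe culture 1. It was at 1033 and 1021 CPM in WT, 1061 and 1217 CPM in Rptor fl/fl and 569.1, 1035 and 1121 CPM in SCe RNA. Apart from SCe culture 1, the values of all groups lay within the range of 1021 to 1217 CPM. The log2 difference between Rptor fl/fl and WT was 0.15 with a 95% interval of -0.11 to 0.41, so a change beyond these bounds lay outside the interval. Footprints were at 169.3, 290.9 and 474.5 CPM in SCe and between 395.3 and 409.7 CPM in the 3 Rptor fl/fl-labelled libraries, and the groups overlapped (0.36, SE 0.322, adjusted p = 0.483; 0.82, adjusted p = 0.0491, without SCe library 3). Reads were split between Mgam-202 (62.5% in WT RNA), Mgam-206 (32.9%) and Mgam-207 (4.6%), and the shares in Rptor fl/fl RNA were 62.6%, 33.7% and 3.7%.

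Lactase (Lct, chr1:128284756-128328318, minus strand) digests milk sugar and had the lowest WT level of the enzymes in organoid RNA, on 252 and 270 counts in the WT lines and 27 in SCe culture 1. Its RNA was at 4.76 and 5.45 CPM in WT lines, 5.52 and 7.63 CPM in Rptor fl/fl lines and 0.903, 19.4 and 29.1 CPM in SCe cultures. SCe cultures 2 and 3 lay above both WT lines and culture 1 below them, which gave a log2 fold change of 1.72 against WT (SE 1.26, adjusted p = 0.316), or 2.27 (adjusted p = 0.000718) without culture 1. Lct footprints numbered 26, 19 and 16 in the Rptor fl/fl-labelled libraries and 0, 7 and 46 in SCe libraries. A count of 0 in SCe library 1 allows up to 3 footprints, and the groups overlapped (-0.97, SE 0.815, adjusted p = 0.452; -1.53, adjusted p = 0.0494, without SCe library 1).

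Trehalase (Treh, chr9:44673233-44686305, plus strand), which splits the fungal and insect sugar trehalose, had its lowest levels in SCe organoids. Its RNA was at 29.5 and 27.2 CPM in WT, 18.5 and 29.4 CPM in Rptor fl/fl and 0.334, 5.03 and 6.09 CPM in SCe cultures. Every SCe culture lay below every line of the other groups, yet the differences did not pass the test (-2.84 against WT, SE 0.949, adjusted p = 0.0649; Rptor fl/fl against SCe 2.62, SE 0.964, adjusted p = 0.0799). Without SCe culture 1 both passed, at -2.33 (adjusted p = 0.000161) and 2.11 (adjusted p = 0.00137). In footprints Treh rose 4.91-fold in the Rptor fl/fl-labelled libraries (2.30, SE 0.458, adjusted p = 0.0115), from 2.71, 10.3 and 19.2 CPM in SCe to 56.5, 55.4 and 61.3 CPM. This call was lost when the effective length of the counted transcripts entered as an offset (1.64, adjusted p = 0.257). In SCe, 83.3% of Treh footprints were assigned to Treh-202 (1672 bases), 11.8% to Treh-204 (421 bases) and 4.9% to Treh-203 (499 bases). Of those labelled Rptor fl/fl, 92.2% were assigned to Treh-201 (1777 bases) and 7.8% to Treh-203. These shares rest on 5 to 83 footprints per SCe library and 340 to 503 per Rptor fl/fl-labelled library. Which entry moved the value was not tested.

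**Figure D2:**
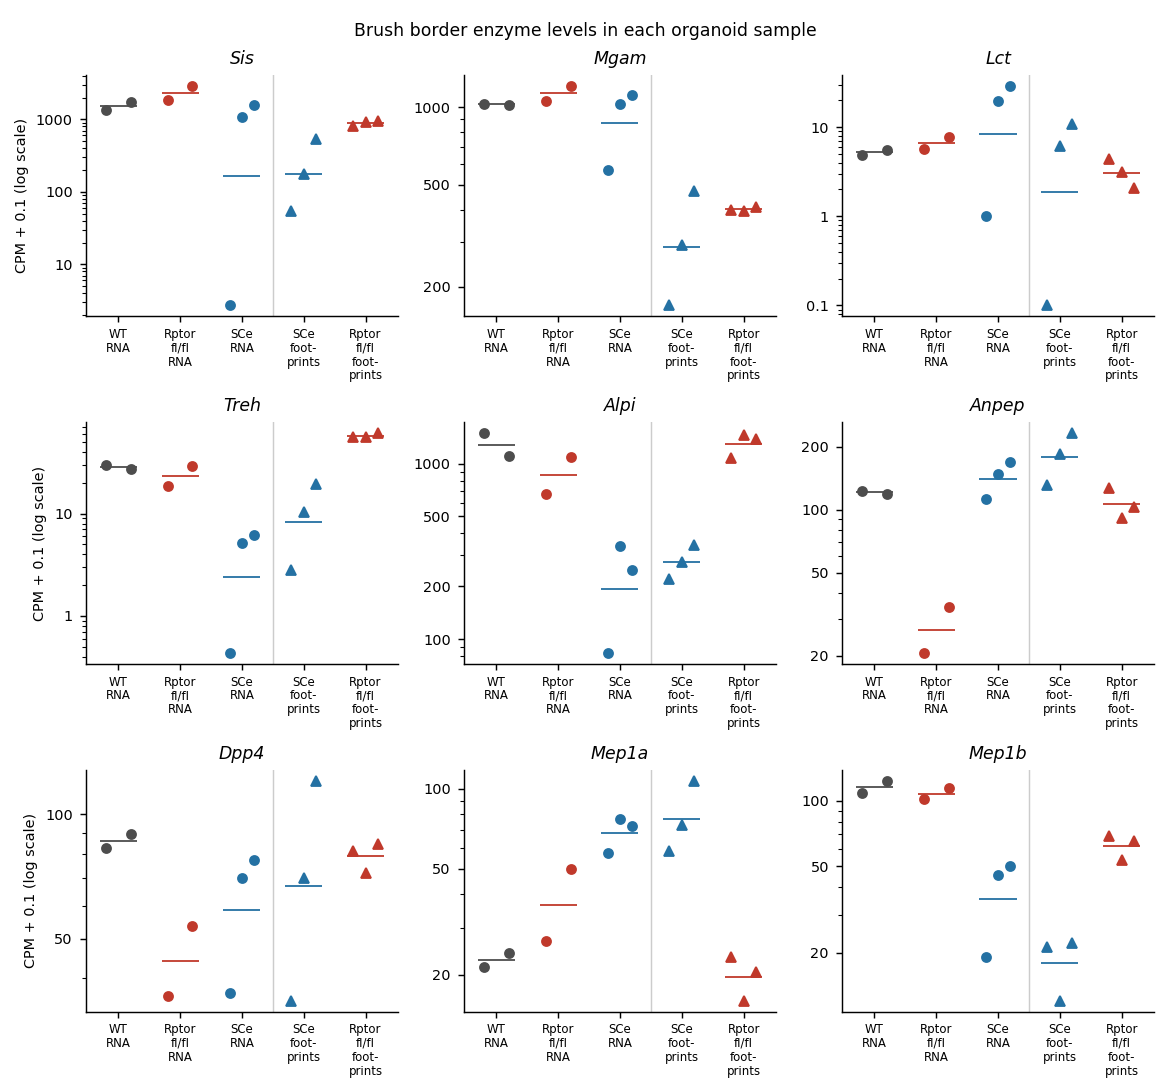
CPM plus 0.1 on a log scale for each enzyme (panels) in each organoid sample, with circles for RNA and triangles for footprints, and bars at the geometric mean. SCe culture 1, the leftmost SCe circle, is the lowest SCe RNA sample in every panel, and Anpep shows the gap of the Rptor fl/fl RNA lines (20.6 and 34.15 CPM) below all other RNA samples.

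Alkaline phosphatase (Alpi, chr1:87098002-87101606, minus strand) fell 5.70-fold in SCe against WT organoid RNA, from 1494 and 1106 CPM to 83.3, 341.5 and 248.7 CPM (log2 fold change -2.51, SE 0.588, adjusted p = 0.0243). All SCe cultures lay below all WT lines. The call was lost without WT line 1 (adjusted p = 0.117), WT line 2 (0.0866) or SCe culture 3 (0.0762), while the log2 fold change stayed between -2.95 and -2.12 in every alternative. In Rptor fl/fl lines it was at 673.6 and 1091 CPM, lower than in both WT lines without passing the test (-0.56, SE 0.276, adjusted p = 0.203), and 3.93-fold higher than in SCe (1.98, SE 0.591, adjusted p = 0.0461). That call was lost when Rptor fl/fl line 1 (adjusted p = 0.112), line 2 (0.217), SCe culture 2 (0.0502) or SCe culture 3 (0.115) was left out. Footprints gave the firmest value: 219.2, 276.3 and 341.8 CPM in SCe and 1083, 1462 and 1376 CPM in the Rptor fl/fl-labelled libraries, a 4.68-fold rise (2.23, SE 0.226, adjusted p = 0.000976) that passed in all 12 alternatives. Over the full RNA transcripts, Alpi shares 3.47% of its 31-base words with the neighbouring alkaline phosphatase gene Akp3. A part of its RNA reads could thus be assigned to either gene. Footprints are short and were counted on coding sequence, and the part of them that could be assigned to either gene was not measured. Akp3 RNA fell in Rptor fl/fl against WT organoids (-2.95, SE 0.461, adjusted p = 0.0203), and its footprints, like those of Alpi, rose in Rptor fl/fl-labelled against SCe libraries (1.37, SE 0.268, adjusted p = 0.0108).

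Aminopeptidase N (Anpep, chr7:79821803-79861059, minus strand), which cleaves amino acids one at a time from the front end of peptides, was the enzyme with the clearest RNA difference in Rptor fl/fl organoids. Its RNA fell from 122.3 and 119.4 CPM in WT lines to 20.6 and 34.15 CPM, a 4.41-fold drop (log2 fold change -2.14, SE 0.245, adjusted p = 0.0133). SCe cultures stood at 112, 147.5 and 168.3 CPM, 5.2-fold above the Rptor fl/fl lines (Rptor fl/fl against SCe -2.38, SE 0.298, adjusted p = 0.00402). Both Rptor fl/fl lines lay below all 5 other RNA samples, and the difference passed in all 12 alternatives against WT and all 13 against SCe. Anpep RNA in SCe was not separated from WT (0.26, SE 0.181, adjusted p = 0.294), except without SCe culture 1 (0.40, adjusted p = 0.0059).

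Anpep footprints showed a smaller gap. They were at 131.3, 184.8 and 232.4 CPM in SCe and 127.5, 90.85 and 103.2 CPM in the Rptor fl/fl-labelled libraries, so that the highest of the latter lay just under the lowest SCe library (-0.78, SE 0.236, adjusted p = 0.0561). The difference passed without SCe library 1 (-0.97, adjusted p = 0.00509). Set against the RNA, the footprints per RNA were 3.16-fold higher in Rptor fl/fl than in SCe organoids (log2 1.66, SE 0.392, adjusted p = 0.0493, assay by group interaction in edgeR). This call sits at the threshold. It was lost with no filter on low counts (adjusted p = 0.0571) and with the effective length offset (0.094). It held with SCe RNA culture 1 left out and with SCe footprint library 1 or 3 left out, and was lost with any other of the 11 libraries left out, with adjusted p between 0.0699 (without SCe footprint library 2) and 0.226 (without Rptor fl/fl RNA line 1), the log2 value staying between 1.34 and 2.08. Left out in turn, Rptor fl/fl RNA line 2 gave 0.0713, SCe RNA cultures 2 and 3 gave 0.122 and 0.126, and the footprint libraries 1, 2 and 3 labelled Rptor fl/fl gave 0.109, 0.0894 and 0.112. The sequences counted for organoid footprints held no Anpep-201 entry, and all Anpep footprints fell on Anpep-202. The RNA was mostly assigned to Anpep-201. Rptor fl/fl organoids used for RNA and for footprints differed in genotype by the RPL22.HA allele. Against SCe, 7 of 11 fetal-like genes were higher in their RNA (21% of all genes) and 0 of 8 tested in their footprints (6.63%). Without SCe footprint library 1, 3 of 9 were higher and 2 lower in footprints (10.4% and 13.4% of genes). Whether these sets of organoids were in the same state was not tested.

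Dipeptidyl peptidase 4 (Dpp4, chr2:62330073-62412231, minus strand), which removes dipeptides and inactivates incretin hormones, fell 1.92-fold in Rptor fl/fl against WT RNA, from 82.6 and 89.7 CPM to 36.3 and 53.6 CPM (-0.94, SE 0.193, adjusted p = 0.0333). Both Rptor fl/fl lines lay below both WT lines. The call was lost without WT line 1 (adjusted p = 0.0653) or line 2 (0.0825) and when all RNA groups were fitted together (0.155). SCe cultures were at 36.7, 70.2 and 77.3 CPM and overlapped the Rptor fl/fl lines (-0.45, SE 0.363, adjusted p = 0.361; -0.71, adjusted p = 0.0211, without SCe culture 1). Its footprints, at 35.3, 70.2 and 120.7 CPM in SCe and 81.3, 72.0 and 84.8 CPM in the Rptor fl/fl-labelled libraries, overlapped fully (0.05, 95% interval -0.78 to 0.87).

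The meprin chains, which pair into a secreted or membrane-bound protease, went in opposite directions between SCe and WT organoid RNA. In mice both chains were higher in the Rptor fl/fl animals. Mep1a (chr17:43474324-43502812, minus strand) rose 3.08-fold in SCe against WT RNA, from 21.2 and 24.1 CPM to 57.2, 76.7 and 72.25 CPM (1.62, SE 0.161, adjusted p = 0.00276), and passed in all 13 alternatives. Mep1b, on chromosome 18, fell 2.97-fold in the same comparison, from 108.1 and 123.6 CPM to 19.0, 45.5 and 50.3 CPM (-1.57, SE 0.417, adjusted p = 0.0344). The Mep1b call was lost without WT line 1 (adjusted p = 0.12), WT line 2 (0.152), SCe culture 2 (0.0735) or SCe culture 3 (0.057). In both genes the WT and SCe samples did not overlap, and the ratio of the chains was turned over between WT lines, where Mep1b was the higher in CPM, and SCe cultures, where Mep1a was.

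Set against SCe, Rptor fl/fl organoids had more Mep1b in both assays and less Mep1a in footprints. The Rptor fl/fl lines held 101.9 and 113.8 CPM of Mep1b RNA, 2.82-fold above SCe (1.49, SE 0.408, adjusted p = 0.0357; 0.128 and 0.159 without Rptor fl/fl line 1 or 2, 0.0712 and 0.0562 without SCe culture 2 or 3) and not separated from WT (-0.10, 95% interval -0.35 to 0.15). Mep1a RNA was at 26.6 and 49.9 CPM, below every SCe culture (-0.84, SE 0.298, adjusted p = 0.0721; 0.0311 without SCe culture 1, 0.0355 without Rptor fl/fl line 2, 0.0147 with DESeq2, 0.0243 with technical libraries kept apart and 0.0437 in the joint fit of all RNA groups). In footprints the split was wide. Mep1a fell 4.05-fold in the Rptor fl/fl-labelled libraries, from 58.0, 72.7 and 107.1 CPM in SCe to 23.1, 15.9 and 20.3 CPM (-2.02, SE 0.265, adjusted p = 0.00245). Mep1b rose 3.26-fold, from 21.2, 12 and 22.2 CPM to 68.5, 53.5 and 65.5 CPM (1.71, SE 0.245, adjusted p = 0.00329). The groups did not overlap for either chain, and both calls passed in all 12 alternatives, on 14 to 538 footprints per library.

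**Figure D3:**
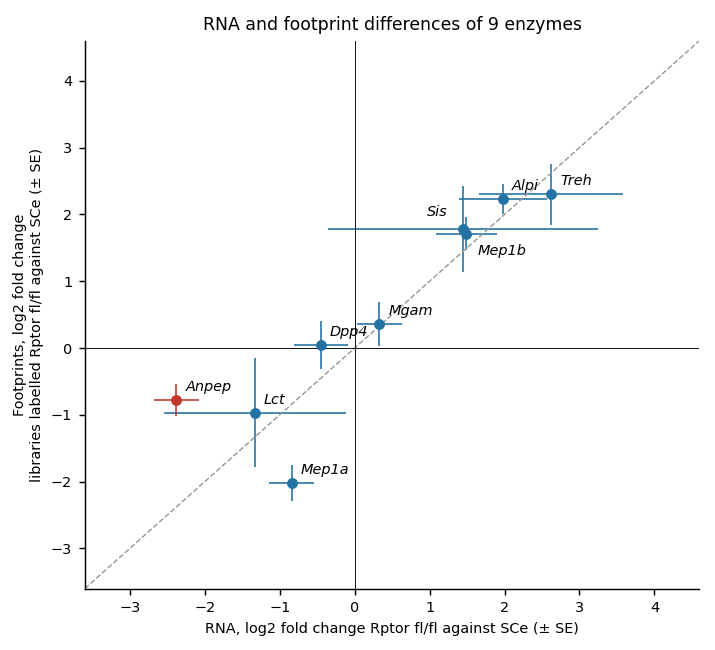
Log2 fold change between Rptor fl/fl and SCe organoids, for RNA on the x axis and footprints on the y axis, for the 9 enzymes, with bars of 1 SE; the dashed line marks equal differences in both assays. Anpep, in red, is the enzyme whose footprints per RNA passed the test (-2.38 in RNA, -0.78 in footprints), and Mep1a lies on the other side of the line (-0.84 and -2.02) without passing.

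Translation efficiency did not separate the other 8 enzymes in these samples. The widest value was that of Mep1a, at -1.12 (SE 0.414, adjusted p = 0.162), in the opposite direction to Anpep. For Alpi, Mep1b, Mgam and Dpp4 the log2 difference in footprints per RNA was between 0.09 and 0.55, with standard errors of 0.496 to 0.623. For Sis, Lct and Treh the standard errors were 1.90, 1.53 and 1.07, so that even differences of several fold could not have been seen. For Sis the SCe RNA cultures lay far apart, with 78 counts in culture 1 and 69094 and 90466 in cultures 2 and 3. With both SCe libraries numbered 1 left out, an alternative chosen after seeing the data, Anpep remained the one enzyme called. In that fit 8.04% of 11162 genes were called higher and 10.5% lower, so the count of enzymes did not stand out from other genes. Mep1a was close to the threshold there, at -1.23 (adjusted p = 0.0538).

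In the intestine of mice the enzymes were far more abundant: the 9 genes together took 26580 to 29700 CPM of the footprints in each of the 6 animals, against 691.2 to 3074 CPM in organoid footprint libraries. The HA pulldown targets Lgr5-positive cells and their progeny, and the footprints of Lgr5 were at 7.76 to 11.4 CPM in WT and 6.32 to 45.8 CPM in Rptor fl/fl mice, with the 12 stem cell genes together at 511 to 828 CPM. Genes of other tissues were also present in these libraries, with pancreatic acinar genes at 2980 to 7210 CPM, immune genes at 3690 to 4060 CPM, smooth muscle genes at 1640 to 1970 CPM and stromal genes at 1070 to 1570 CPM. Of the 10 stromal genes, 7 were higher in Rptor fl/fl mice, where 7.47% of 11515 genes were called higher. The part of these cells in the enzyme levels was not tested. Fewer cells of a type cannot be told apart from less RNA per cell in such bulk samples.

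Differences in mice were small in fold. The genotypes did not overlap for the 4 enzymes called, nor for Anpep, which was not called. The share of all genes without such overlap was not counted. Mep1b rose 1.39-fold, from 1277, 1417 and 1325 CPM in WT mice to 1914, 1911 and 1778 CPM in Rptor fl/fl mice (0.48, SE 0.0683, adjusted p = 0.00023), without overlap and in all 12 alternatives. Sis fell 1.31-fold, from 6333, 6962 and 6455 CPM to 5730, 5039 and 4313 CPM (-0.39, SE 0.087, adjusted p = 0.0073), also without overlap; the call was lost without WT mouse 2 (adjusted p = 0.0571) and with the length offset (0.0681). Mep1a rose 1.22-fold, from 348.9, 365.3 and 308.1 CPM to 396, 425.4 and 421 CPM (0.29, SE 0.0801, adjusted p = 0.026), and Alpi 1.2-fold, from 924, 1008 and 1141 CPM to 1195, 1306 and 1210 CPM (0.27, SE 0.0801, adjusted p = 0.0405). In both genes every Rptor fl/fl mouse lay above every WT mouse. The Mep1a call was lost without WT mouse 1 (adjusted p = 0.0514) or 3 (0.163), without Rptor fl/fl mouse 2 (0.11) or 3 (0.0739) and with the length offset (0.0982), and the Alpi call without WT mouse 1 (0.151) or 2 (0.145), without Rptor fl/fl mouse 2 (0.186) or 3 (0.0697) and with the length offset (0.13).

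**Figure D4:**
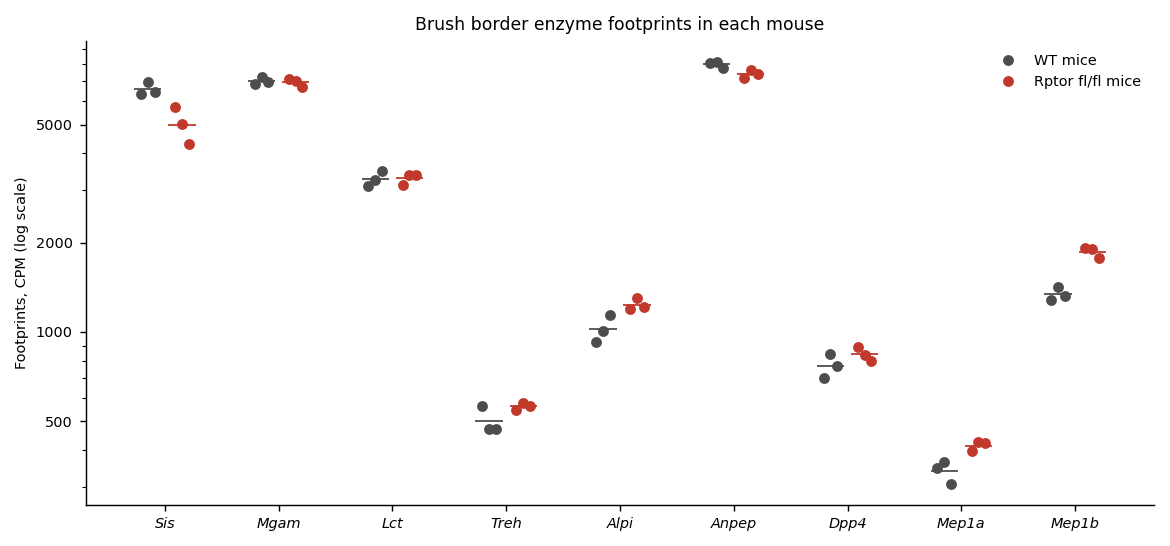
Footprints of each enzyme in each mouse, in CPM on a log scale, with bars at the geometric mean of 3 mice per genotype (grey WT, red Rptor fl/fl). Sis lies lower and Mep1b higher in all 3 Rptor fl/fl mice, by 1.31-fold and 1.39-fold, while Mgam and Lct overlap.

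The other 5 enzymes did not pass in mice. Anpep, the most abundant, was at 8076, 8137 and 7764 CPM in WT and 7187, 7621 and 7419 CPM in Rptor fl/fl mice, with every Rptor fl/fl mouse below every WT mouse and no call (-0.11, 95% interval -0.23 to 0.02, adjusted p = 0.255). Mgam was at 6835, 7249 and 6978 CPM and 7107, 7031 and 6688 CPM (-0.02, 95% interval -0.14 to 0.11). Lct was at 3116, 3247 and 3491 CPM and 3133, 3393 and 3389 CPM (0.01, 95% interval -0.14 to 0.15). For Mgam and Lct the groups overlapped, and larger differences than these bounds lay outside the intervals. Dpp4 (0.12, SE 0.0783, adjusted p = 0.343) and Treh (0.18, SE 0.0799, adjusted p = 0.173) overlapped as well.

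Other genes of the same cell were counted from lists, to set the enzymes beside them. Their counts are read against the shares of all genes called: in Rptor fl/fl against WT RNA 11.6% higher and 11% lower, in SCe against WT RNA 22.4% and 19.9%, in Rptor fl/fl against SCe RNA 21% and 21.8%, in organoid footprints 6.63% and 9.84%, and in mice 7.47% and 5.97%. Counts without the SCe libraries numbered 1 are read against higher shares. These were 31.9% and 32.2% in SCe against WT RNA and 30.6% and 30.2% in Rptor fl/fl against SCe RNA. In organoid footprints they were 10.4% and 13.4%. Of the other brush border hydrolases, 6 of 13 tested were lower in Rptor fl/fl against WT RNA, among them gamma-glutamyltransferase 1 (Ggt1, -3.25, SE 0.172, adjusted p = 0.00565), angiotensin-converting enzyme (Ace, -1.60, SE 0.0881, adjusted p = 0.00569) and the dipeptidase Dpep1 (-2.25, SE 0.219, adjusted p = 0.0109), and the median of the 13 was -1. The other 3 were the aminopeptidase Enpep (-0.64, adjusted p = 0.0116), the ceramidase Asah2 (-0.65, adjusted p = 0.0161) and the nucleotide hydrolase Enpp3 (-1.31, adjusted p = 0.0293). No disaccharidase passed in that comparison. In SCe against WT RNA, 3 of 13 were lower (Tmprss15, Enpp3 and Enpp7; 7 lower and 2 higher without SCe culture 1), and in mice 5 of 13 were higher, among them Enpp3 (0.89, SE 0.07, adjusted p = 3.79e-07) and Asah2 (0.37, SE 0.0691, adjusted p = 0.00214).

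Of the apical nutrient transporters, 3 of 17 were lower and 1 higher in Rptor fl/fl against WT RNA, with the amino acid transporter Slc6a19 at -3.36 (SE 0.279, adjusted p = 0.00983) and the peptide transporter Slc15a1 at -1.14 (SE 0.191, adjusted p = 0.0226). In mice 8 of 17 were higher and 4 lower. The lower ones included the sugar transporters Slc2a5 (-0.55, SE 0.0818, adjusted p = 0.000309), Slc2a2 (-0.53, SE 0.0845, adjusted p = 0.000592) and Slc5a1 (-0.27, SE 0.063, adjusted p = 0.0104), and the other was the peptide transporter Slc15a1 (-0.23, adjusted p = 0.0298). Of the microvillus genes, 3 of 15 were higher and 2 lower in Rptor fl/fl against WT RNA, and 6 of 15 were higher in mice. Of the lipid and sugar handling genes of enterocytes, 7 of 16 tested were higher in footprints labelled Rptor fl/fl against SCe, led by Apoa1 (2.38, SE 0.419, adjusted p = 0.00685; 9 of 16 without SCe library 1), and 7 of 17 were higher and 1 lower in mice.

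Of the enterocyte transcription factors, 7 of 16 tested were lower in SCe against WT RNA, with Cdx1 at -1.27 (SE 0.0774, adjusted p = 0.00127), Hnf4a at -1.12 (SE 0.0954, adjusted p = 0.00199) and Ppara at -2.25 (SE 0.288, adjusted p = 0.00478), and 9 of 17 were higher in Rptor fl/fl against SCe RNA. Without SCe culture 1 these counts were 11 of 16 lower with 2 higher, and 11 of 17 higher with 2 lower. In Rptor fl/fl against WT RNA 2 of 17 were higher and 3 lower, Hnf4a among the lower (-0.41, SE 0.0743, adjusted p = 0.026). In mice 6 of 17 were higher, with Hnf4g at 0.49 (SE 0.0743, adjusted p = 0.000406), and 2 lower, Gata4 (-0.33, SE 0.0958, adjusted p = 0.0353) and Cdx2 (-0.33, SE 0.0999, adjusted p = 0.0437). Markers of other epithelial states moved beside the enzymes: in Rptor fl/fl against WT RNA, 9 of 11 fetal-like genes and 5 of 9 goblet genes tested were higher, and 7 of 10 Paneth genes and 6 of 12 stem cell genes were lower. In SCe against WT RNA, 6 of 9 goblet and 7 of 9 enteroendocrine genes tested were lower (8 and 9 without SCe culture 1), and in mice 5 of 9 Paneth genes tested and 6 of 12 proliferation genes were lower. The part of these cell types in the enzyme levels was not tested.

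The genes whose RNA profile over the 7 organoid samples came nearest to the mean centred log2 profile of the 9 enzymes, among 13914 genes, were Mttp (root mean square distance 0.138 log2 units), Ptprn2 (0.138), Slc2a7 (0.143), Slc2a5 (0.151), Nrg4 (0.198) and Abat (0.218). Mttp, which loads lipid onto chylomicrons, was at 908.5 and 910 CPM in WT lines, 554.8 and 727.2 CPM in Rptor fl/fl lines and 146.2, 788.6 and 861.5 CPM in SCe cultures. The mean profile was thus set mainly by SCe culture 1, at -2.10 against -0.03 to 0.53 in the other samples. The enzymes themselves lay farther from their own mean, from 0.525 (Mep1b) to 2.352 log2 units (Sis).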

How the data were processed

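RNA-seq and Ribo-seq libraries were quantified by the authors with Salmon (1.1.0 in the submitters' processing notes, after cutadapt 1.18) on GENCODE vM21 transcripts, and the deposited files give estimated counts and TPM per transcript. Only the estimated counts were used; the deposited TPM values served as a check of the files. The authors quantified RNA on 66244 transcripts, organoid footprints on 59120 coding sequences plus 44641 entries of the 5′ region, which were left out, and mouse footprints on 65862 sequences. A deposited table of the authors' own fold changes and p-values was not used.

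Counts were summed per gene and rounded, and the 23 libraries became 19 samples once technical libraries of a line were summed. Each comparison was fitted on its own groups with edgeR 4.0.16 in R 4.3.3 (filterByExpr, TMM, quasi-likelihood test, two-sided), with Benjamini-Hochberg adjustment over all genes tested and a threshold of 0.05. Translation efficiency was the assay by group interaction, with TMM within each assay. SE was the log2 fold change divided by the root of the F statistic. The scripts were tested on simulated counts. Nothing in the sources used here says that all cultures were independent, so p-values measure the spread between these samples. Alternatives were DESeq2 1.42.0, other scaling, no filter, a length offset, technical libraries kept apart, joint fits, the replicate number as a block and each sample left out. With technical libraries kept apart, libraries of the same line count as replicates, so those p-values do not measure the spread between lines alone. Salmon's default effective length was applied by the authors to footprints as well, so footprint levels per kilobase used the full sequence length.

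The members and lists were chosen with earlier results of these data known. Named genes were the 9 enzymes, Rptor, up to 3 genes with the smallest p per list, direction and comparison, and the 6 nearest profiles, except 1 gene that is not reported here; Akp3, Enpep, Asah2 and Enpp3 in the RNA comparison with WT, Slc15a1 in mice, the list counts without the SCe libraries numbered 1, and the mention of Lgr5 and Vim, were chosen after their values were seen.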

Additional observations from a re-analysis of the deposited data

Results flagged for a closer look

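Footprints on the 5′ entries of the annotation, which entered no comparison, were more frequent for 3 enzymes in the organoids labelled Rptor fl/fl than in any SCe library. Sis had 531 such footprints in the 3 Rptor fl/fl libraries, at 16 to 30 RPM (reads scaled to the library total), against 23 in SCe libraries at 0 to 4.37 RPM. Alpi had 228, at 9.92 to 11.6 RPM against 0 to 1.14 in SCe. Mgam had 133, at 5.7 to 6.89 RPM against 0 to 1.41 in SCe. Anpep went the other way, with 41 in SCe libraries at 1.71 to 14.6 RPM and 5 in Rptor fl/fl libraries at 0 to 0.582 RPM. These values carry no test, and the share of all genes with such a gap was not counted. Over all genes, 5′ entries held 3.82% to 4.25% of assigned reads in the Rptor fl/fl libraries and 2.97% to 6.98% in SCe libraries. On coding sequence, the footprints of Alpi and Sis were also above every SCe library in all Rptor fl/fl libraries, without passing the test for Sis.

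The change of Anpep between Rptor fl/fl and SCe organoids differed between RNA (log2 fold change -2.38) and footprints (-0.78), by 1.66 in the interaction test of edgeR (SE 0.392, adjusted p = 0.0493). Over its alternatives the adjusted p ran from 0.00189 to 0.226.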

How the results depend on the processing

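Of 729 enzyme values under 81 combinations of comparison and alternative, 623 kept their direction and side of the threshold, 43 lost and 35 gained a call, and 28 changed sign; none of the 28 was past the threshold in either form. For sign changes and lost calls the cause was not tested, beyond fewer samples where one was left out. Anpep RNA (both comparisons), Mep1a RNA in SCe against WT, Alpi, Mep1a and Mep1b footprints in organoids and Mep1b in mice passed in every alternative.

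In Rptor fl/fl against WT RNA, enzymes called higher went from 0 to 1 with DESeq2 and to 2 with the replicate block or with technical libraries kept apart, and those called lower from 2 to 1 in the joint fit of all RNA groups; genes called went from 3195 to 7208 with technical libraries kept apart and to 1544 in the joint fit. With a sample left out, these ran from 0 to 1 higher, 1 to 3 lower and 939 to 2126 genes, and Treh from -0.60 to 0.05. In SCe against WT RNA, the replicate block gave 1 enzyme lower, 3154 genes against 6309 and Lct at -0.07. Leaving a sample out gave 1 to 3 enzymes higher, 0 to 3 lower, 2027 to 9530 genes and Mgam from -0.33 to 0.09. In Rptor fl/fl against SCe RNA, DESeq2, the replicate block, technical libraries kept apart and the joint fit each gave 2 lower, and the block gave 3413 genes against 6452 and Lct at 0.44. Leaving a sample out gave 0 to 4 higher, 1 to 4 lower and 2509 to 9101 genes.

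In organoid footprints, DESeq2 and no filter each gave 2 lower, and the length offset gave 654 genes against 1781. Leaving a library out gave 3 to 5 higher, 1 to 3 lower, 669 to 2682 genes, Dpp4 from -0.32 to 0.63 and Lct from -1.53 to 0.29. In translation efficiency, no filter, the block and the length offset each gave 0 enzymes higher; genes called were 1206 with DESeq2, 4 with the block, 116 with the length offset, 1312 with technical libraries kept apart and 2072 without both SCe libraries numbered 1, against 315. The block gave Alpi -0.06, Lct -1.22, Sis -2.96, Mgam -0.04 and Mep1b -0.07. Leaving a library out gave 0 to 1 higher and 25 to 951 genes, Alpi from -0.13 to 0.71, Lct from -0.29 to 1.72, Sis from -0.30 to 1.59, Mgam from -0.21 to 0.54 and Treh from -0.74 to 0.77. In mice, the length offset gave 1 higher, 0 lower and 679 genes against 1547, and leaving a mouse out 1 to 3 higher, 0 to 1 lower, 897 to 1954 genes, Lct from -0.03 to 0.06 and Mgam from -0.03 to 0.01.

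Replicate numbers were not shown to pair the samples: same-numbered samples correlated at -0.046 to 0.029 in organoid footprints and -0.005 to 0.035 in mice. In RNA they correlated at 0.397 (Rptor fl/fl against WT), 0.203 and 0.225 (SCe against WT) and 0.275 and 0.315 (Rptor fl/fl against SCe), over only 2 shared numbers. With the block, Rptor fl/fl against WT RNA had 4751 genes called and Sis passed (0.63, adjusted p = 0.00668), as did Mep1a (0.69); Mep1a passed in Rptor fl/fl against SCe RNA (-0.86, adjusted p = 0.0421), Sis passed in organoid footprints (2.33, adjusted p = 0.0216), and Alpi in SCe against WT RNA (-2.91, adjusted p = 0.066) and Anpep in translation efficiency (1.57, adjusted p = 0.174) did not. Few footprints limit Lct, Treh and Mep1b in SCe organoids.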
